A study of Mus musculus with 3 samples.

Results

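Igfbp2-high fibroblasts were the dermal cells of mouse abdominal skin in which Igfbp2, the transcript of insulin-like growth factor binding protein 2, took a large share of the RNA. Cells were kept where 200 or more genes were detected and mitochondrial genes took no more than 10% of the unique molecular identifiers (UMIs, each standing for 1 captured RNA molecule). A kept cell was a fibroblast where Col1a1, Col1a2, Col3a1, Dcn and Lum together made up at least 1% of its UMIs, and Igfbp2-high where Igfbp2 made up at least 0.2% and Ccl2, Ccl7 and Tnfaip6 together stayed below 0.5%. There were 127 such cells among 1367 fibroblasts and 6022 kept cells: 10 in the non-pregnant library (NP), 85 in the library of gestation day 16 (dpc16) and 32 in that of day 42 after birth (dpp42). They were set against 1218 other fibroblasts with Igfbp2 below 0.2%, 88 in NP, 1055 in dpc16 and 75 in dpp42. Another 3, 16 and 3 fibroblasts of NP, dpc16 and dpp42 passed the Igfbp2 gate but exceeded the chemokine limit, and belong to neither group. The rule used measured values of these 9 genes, so the 9 are described and not tested.

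Each stage was 1 single-cell RNA library from mice 8 to 12 weeks old on the C57BL/6 background, all carrying Col1a2creERT2 with R26H2B EGFP, controls included. By its name this genotype pairs a tamoxifen-activated Cre recombinase driven by a collagen promoter with a nuclear EGFP reporter. In the dpc16 and dpp42 libraries the mice had received tamoxifen during pregnancy, while the NP mice had received it for 3 days and were sampled 48 days later. Fat was scraped off, whole skin was treated with 0.25% trypsin for 30 min to lift the epidermis, and dermal cells passed through 40 and 20 µm filters before loading on a 10x Chromium instrument at 1000 cells per µL with 3′ version 2 chemistry. How many animals went into a library is not given in the sources used here.

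IGFBP2 is a secreted protein that binds insulin-like growth factors in the space between cells and can also bind integrins on the cell surface. Dermal fibroblasts build the collagen and elastic fibres of skin, and fall into a papillary layer under the epidermis, a reticular layer below it, the deeper fascia, and the specialised cells of the hair follicle. Wnt ligands from epidermis and dermis act on papillary and follicle fibroblasts, where Axin2 and Nkd2 are transcribed as feedback inhibitors of the pathway.

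The submitters state 1289, 3650 and 1081 cells for NP, dpc16 and dpp42. The files held 1330, 4122 and 1196 barcodes, of which 1289, 3652 and 1081 passed the limits above. Summed over Igfbp2-high cells the libraries gave 23890, 391283 and 83533 UMIs, and over other fibroblasts 248725, 4752227 and 194752 UMIs, so the NP values of Igfbp2-high cells are the least precise and dpc16 carries most of the counts. Median UMIs per cell were 2506.5, 4452 and 2480 in Igfbp2-high cells and 2654.5, 4031 and 2360 in other fibroblasts. The libraries shared 6 kept barcodes between NP and dpc16, 1 between NP and dpp42 and 4 between dpc16 and dpp42, none of them an Igfbp2-high cell. Levels are given as CPM, the UMIs of a gene per 1000000 UMIs of the summed cells. A lower CPM in a sum can come from fewer cells with the RNA or from less RNA per cell, which the sums cannot tell apart.

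The fibroblast label held against markers that the rule did not use. Pdgfra, the receptor for platelet-derived growth factor that marks fibroblasts, had a UMI in 3 of 10, 56 of 85 and 17 of 32 Igfbp2-high cells of NP, dpc16 and dpp42 and in 19 of 88, 560 of 1055 and 34 of 75 other fibroblasts. In cells with under 0.1% of their UMIs from the 5 collagen-gate genes its share was 0.427, 1.41 and 0.851%. Summed keratinocyte markers reached 1381, 1564 and 1819.6 CPM in Igfbp2-high cells and 2939, 2692 and 4092 CPM in other fibroblasts, against 23424, 17587 and 18978 CPM in cells under the collagen gate. The summed lists for blood and lymphatic endothelium, mural cells, immune cells, Schwann cells, melanocytes, adipocytes, muscle and red cells each stayed below 100 CPM in Igfbp2-high cells of every library, with Pecam1, Prox1, Flt4, Rgs5, Cspg4, Ptprc, Tyrobp, Mlana, Pmel, Adipoq, Plin1, Ckm and Acta1 at 0. Several lists still exceeded other fibroblasts in some libraries. Schwann markers in dpp42 stood at 95.8 CPM in Igfbp2-high cells, 5.13 CPM in other fibroblasts and 25.8 CPM in cells under the collagen gate. In NP and dpc16 they were lower than in other fibroblasts, at 0 and 2.56 CPM against 12.1 and 19.4 CPM. Melanocyte markers in dpc16 stood at 48.6 CPM against 14.9 CPM in other fibroblasts, and at 0 in NP and dpp42. The muscle list stood at 83.7, 79.2 and 59.9 CPM in Igfbp2-high cells and 20.1, 52.8 and 15.4 CPM in other fibroblasts, higher in each library, and in Igfbp2-high cells it was Des alone, at 2, 31 and 5 UMIs (log2 difference 0.73, edgeR adjusted p = 0.204). Of 12 dermal papilla markers 7 had UMIs in Igfbp2-high cells, and Corin, Sox2, Hhip, Sox18 and Prom1 were at 0. That list summed to 377, 549 and 335 CPM in Igfbp2-high cells and 454, 386 and 359 CPM in other fibroblasts, against 133, 54.2 and 74.4 CPM in cells under the collagen gate. At least 0.5% of UMIs came from markers of another cell type in 0, 5 and 3 Igfbp2-high cells and in 14, 113 and 8 other fibroblasts.

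These stretches of genome stand for the gene that defines the cells and for a pair of genes that were higher in them: Igfbp2 itself, Axin2 and Mmp3. Each is the 250 bases before the start listed by RefSeq on GRCm38.p6, read 5′ to 3′ on the plus strand, with capitals marking GGGCGG, the GC box bound by Sp1-type factors, or TATAAA, the TATA box. For Igfbp2 the first of 2 listed starts is used, 23 bases from the GENCODE gene start.
Igfbp2, chr1:72824230-72824479: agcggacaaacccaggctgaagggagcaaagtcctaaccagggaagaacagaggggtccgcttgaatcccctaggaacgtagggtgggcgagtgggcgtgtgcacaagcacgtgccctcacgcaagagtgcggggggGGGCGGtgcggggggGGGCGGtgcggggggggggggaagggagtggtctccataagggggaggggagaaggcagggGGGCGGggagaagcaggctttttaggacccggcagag
Axin2, chr11:108920099-108920348: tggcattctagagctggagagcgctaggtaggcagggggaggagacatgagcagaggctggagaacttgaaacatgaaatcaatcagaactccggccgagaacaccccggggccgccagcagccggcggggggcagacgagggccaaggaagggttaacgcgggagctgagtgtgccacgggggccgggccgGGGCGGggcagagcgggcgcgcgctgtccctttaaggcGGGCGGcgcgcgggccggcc
Mmp3, chr9:7445572-7445821: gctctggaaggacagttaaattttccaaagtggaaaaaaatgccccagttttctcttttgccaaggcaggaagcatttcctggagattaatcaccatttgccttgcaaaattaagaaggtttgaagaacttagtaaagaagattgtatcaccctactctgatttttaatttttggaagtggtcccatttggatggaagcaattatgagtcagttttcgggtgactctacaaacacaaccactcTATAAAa
The Igfbp2 stretch held 3 GC boxes, the Axin2 stretch 2 and the Mmp3 stretch none, while the Mmp3 stretch alone of these held a TATA box. The core CTTTGA, to which the Wnt-responsive TCF and LEF factors bind, was in none of these windows on either strand. Over 32851 mouse promoter windows of this length, 32.7% held GGGCGG, 12.4% TATAAA and 13.8% CTTTGA on either strand. These matches describe letters and not bound factors.

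Igfbp2 (ENSMUSG00000039323, chromosome 1, 72824503 to 72852474, plus strand, GRCm38) made up a median of 0.545, 0.476 and 0.581% of UMIs in Igfbp2-high cells of NP, dpc16 and dpp42, with a highest cell of 1.29, 1.48 and 2.52%. In summed cells that came to 6362, 6019 and 7925 CPM in Igfbp2-high cells and 141, 119 and 216 CPM in other fibroblasts. The lowest Igfbp2-high cells held 0.258, 0.201 and 0.258%, and the highest of the other fibroblasts 0.191, 0.197 and 0.156%. Between 0.2 and 0.3% lay 1, 21 and 6 Igfbp2-high cells, and between 0.1 and 0.2% lay 5, 53 and 5 other fibroblasts, so the threshold cuts a continuous range. At least 1 Igfbp2 UMI was seen in 15.9, 18.6 and 21.3% of other fibroblasts, at median depths of 2654.5, 4031 and 2360 UMIs, and in 9.82, 18.4 and 12.98% of cells almost free of collagen RNA, at 3208, 4645 and 3480.5 UMIs. An Igfbp2-high cell carried at least 5 Igfbp2 UMIs.

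Igfbp2-high cells made up 9.90% of fibroblasts in NP (exact Clopper-Pearson 95% interval 4.85 to 17.5), 7.35% in dpc16 (5.92 to 9.01) and 29.1% in dpp42 (20.8 to 38.5). The dpp42 interval lies above both others, and the NP and dpc16 intervals overlap. Of all kept cells they came to 0.776, 2.33 and 2.96%, while all fibroblasts were 7.84, 31.7 and 10.2%, so the order of the libraries depends on the denominator. With 1 library per stage there is no test between stages, and intervals cover counting error only. The share also moved with the chemokine limit, since 51, 224 and 22 other fibroblasts of NP, dpc16 and dpp42 exceeded that limit, 58.0, 21.2 and 29.3% of them. With those cells taken out of the denominator as well, the shares became 21.3, 9.28 and 37.6% of NP, dpc16 and dpp42 fibroblasts. With the collagen gate also raised to 3% and cells with markers of other types left out, they were 35.7, 11.0 and 42.0%, and NP then stood close to dpp42. This last set, chosen after seeing the data, is called the strictest reference cells.

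**Figure D1:**
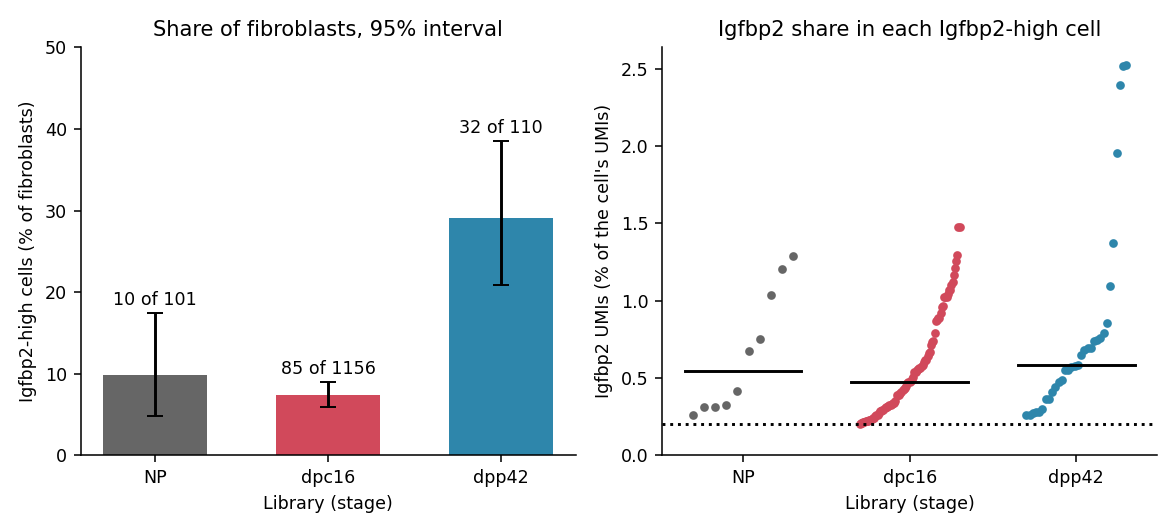
Left, Igfbp2-high cells as a percentage of fibroblasts in each library, with exact 95% intervals and the counts above the bars. Right, the percentage of UMIs from Igfbp2 in each Igfbp2-high cell, with the median as a line and the 0.2% gate dotted; dpp42 has the highest share of cells at 29.1%, while the medians per cell lie between 0.476 and 0.581%.

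The collagen-gate genes took a larger share of RNA in Igfbp2-high cells. Their median was 11.4, 11.5 and 6.44% of UMIs in Igfbp2-high cells of NP, dpc16 and dpp42, against 5.65, 9.02 and 5.13% in other fibroblasts. Col3a1, the collagen III chain of young and papillary dermis, stood at 38217, 32503 and 24074 CPM in Igfbp2-high cells and 13577, 23469.6 and 12467 CPM in other fibroblasts. Col1a1, the main collagen I chain, stood at 19883, 26372 and 9409 CPM in Igfbp2-high cells and 11016, 24279.8 and 7779 CPM in other fibroblasts. Both were above the other fibroblasts in every library. Dcn, the small proteoglycan decorin, gave 24404, 19336 and 21009.7 CPM in Igfbp2-high cells and 15961, 13562 and 18706 CPM in other fibroblasts, and Lum, its relative lumican, 4228, 3379 and 4561 CPM in Igfbp2-high cells and 2436, 1949 and 3389 CPM in other fibroblasts. No Igfbp2-high cell had under 3% of its UMIs from these genes, while 23, 131 and 18 other fibroblasts did, which bears on the low-collagen end of the reference cells. Ccl2, a monocyte-attracting chemokine on which the gate set an upper limit for Igfbp2-high cells alone, stood at 209, 135 and 0 CPM in Igfbp2-high cells and 5130.2, 1731 and 1022 CPM in other fibroblasts.

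Between Igfbp2-high cells and other fibroblasts, with the 3 libraries as replicates and the library as a block, 142 genes were higher and 287 lower among 2906 tested (edgeR quasi-likelihood test, Benjamini-Hochberg adjusted p below 0.05). These are 4.89% of tested genes higher and 9.88% lower, the background for every list. The median log2 difference over all tested genes was -0.01. The same direction was seen in all 3 libraries for 122 of the 142 and 253 of the 287. The replicates are libraries of different stages, and the test shares its estimate of spread over genes, so a gene can be called although its difference varies widely between the 3. The count rests on each of them: 128 of the 142 and 247 of the 287 were also called without NP, 45 and 128 without dpc16, and 68 and 118 without dpp42. Only 25 of the genes called higher and 54 of those called lower were called in all 3 of these smaller fits.

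Mmp3, the secreted protease stromelysin-1, had the lowest adjusted p of the genes called higher. Mmp3 (ENSMUSG00000043613, chromosome 9, 7445822 to 7455975, plus strand) stood at 1758, 1418 and 1137 CPM in the Igfbp2-high cells of NP, dpc16 and dpp42, against 225, 160.3 and 313 CPM in the other fibroblasts of the same libraries. Every Igfbp2-high value was above every other value, with per-library ratios of 7.81, 8.85 and 3.63. The mean was 1438 ± 311 CPM in Igfbp2-high cells and 233 ± 76.7 CPM in other fibroblasts (SD, n = 3 libraries; log2 difference 2.61, SE 0.20, edgeR adjusted p = 6.92e-32). A UMI of Mmp3 was found in 80.0, 87.1 and 71.9% of Igfbp2-high cells and 25, 19.5 and 40% of other fibroblasts, against 0.939, 1.24 and 0.957% of cells almost free of collagen RNA.

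The naming rule, which also asks for a call with the chemokine limit on both sides, gave 9 more leading genes on the higher side. It takes the largest differences with the same sign in all 3 libraries. For these genes and Mmp3, direction per library was thus fixed by the choice, and lack of overlap describes them without supporting the difference. Qpct, glutaminyl-peptide cyclotransferase, which caps the amino end of secreted peptides, gave 921, 457 and 646 CPM in the Igfbp2-high cells of NP, dpc16 and dpp42, against 169, 106 and 190.0 CPM in the other fibroblasts of the same libraries (log2 difference 1.96, SE 0.21, edgeR adjusted p = 4.06e-17). Its groups did not overlap. Scg3, the granin secretogranin III of secretory vesicles, gave 753, 35.8 and 431 CPM in Igfbp2-high cells and 101, 6.10 and 82.2 CPM in other fibroblasts (log2 difference 2.47, SE 0.33, edgeR adjusted p = 1.72e-11). Scg3 was low in dpc16 on both sides, and higher in Igfbp2-high cells within each library. Pamr1, a secreted peptidase-domain protein, gave 293, 209.6 and 275 CPM in Igfbp2-high cells and 28.1, 49.5 and 51.3 CPM in other fibroblasts (log2 difference 2.14, SE 0.27, edgeR adjusted p = 3.90e-13). Kcnk2, the tandem-pore potassium channel TREK-1, gave 167, 146 and 179.6 CPM in Igfbp2-high cells and 32.2, 21.7 and 46.2 CPM in other fibroblasts (log2 difference 2.43, SE 0.32, edgeR adjusted p = 1.80e-11). Sema3a, a repulsive guidance cue for axons, gave 167, 156 and 275 CPM in Igfbp2-high cells and 60.3, 27.6 and 56.5 CPM in other fibroblasts (log2 difference 2.201, SE 0.30, edgeR adjusted p = 2.65e-11). In each of these 3 every Igfbp2-high value lay above every other value. These genes and Mmp3 were called whichever library was left out. Kcnk2, however, passed the count filter through its Igfbp2-high sums, with only the dpp42 sum of other fibroblasts also over 45.1 CPM.

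The other 4 leading genes rested on dpc16. Moxd1, a monooxygenase related to dopamine beta-hydroxylase, gave 126, 294 and 59.9 CPM in the Igfbp2-high cells of NP, dpc16 and dpp42, against 92.5, 29.0 and 20.5 CPM in the other fibroblasts of the same libraries (log2 difference 2.72, SE 0.28, edgeR adjusted p = 1.76e-18), so the difference was large in dpc16 alone. For Moxd1, adjusted p lay between 5.64e-21 and 0.610 with 1 library left out, and without dpc16 the call was lost. Its UMIs were in 30, 57.6 and 15.6% of Igfbp2-high cells and in 23.4, 30.9 and 25% of cells almost free of collagen RNA, so only the dpc16 share is well above that background. Pla2g7, platelet-activating factor acetylhydrolase, gave 83.7, 94.6 and 168 CPM in Igfbp2-high cells and 24.1, 12.8 and 56.5 CPM in other fibroblasts (log2 difference 2.37, SE 0.35, edgeR adjusted p = 1.85e-09), Col23a1, a transmembrane collagen of papillary dermis, 83.7, 194 and 119.7 CPM in Igfbp2-high cells and 28.1, 32.8 and 51.3 CPM in other fibroblasts (log2 difference 2.15, SE 0.32, edgeR adjusted p = 1.42e-09), and Fxyd6, a sodium pump regulator, 167, 268 and 239 CPM in Igfbp2-high cells and 44.2, 50.7 and 118 CPM in other fibroblasts (log2 difference 1.92, SE 0.26, edgeR adjusted p = 3.26e-11). Their groups did not overlap, but in NP the 83.7 CPM of Pla2g7 and of Col23a1 stands for only 2 UMIs. Without dpc16 the adjusted p was 0.0951 for Pla2g7, 0.279 for Col23a1 and 0.169 for Fxyd6, and in the fits without NP or dpp42 all 3 were called. Moxd1, Pla2g7 and Col23a1 passed the count filter through their Igfbp2-high sums. Among sums of other fibroblasts only NP for Moxd1 and dpp42 for Pla2g7 and Col23a1 were over 45.1 CPM.

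On the lower side, 3 of the genes tested had no UMI in any Igfbp2-high cell. Coch, the secreted matrix protein cochlin, had 0 UMIs in Igfbp2-high cells of each library, against 559, 485 and 134 CPM in other fibroblasts of NP, dpc16 and dpp42 (139, 2307 and 26 UMIs). It was at least 79.1-fold lower over the summed libraries, taking 3 counts over the Igfbp2-high group as the limit that a count of 0 allows (edgeR adjusted p = 1.67e-36). Tnmd, the tendon membrane protein tenomodulin, had 0 UMIs in Igfbp2-high cells, against 96.5, 142 and 82.2 CPM in other fibroblasts, and was at least 22.8-fold lower (edgeR adjusted p = 4.62e-17). Ptx3, a long pentraxin that binds matrix and complement, had 0 UMIs in Igfbp2-high cells, against 101, 80.2 and 71.9 CPM in other fibroblasts, and was at least 13.4-fold lower (edgeR adjusted p = 2.66e-11). For all 3 the call held whichever library was left out, though with few Igfbp2-high UMIs in NP the 0 there allows up to 126 CPM, above the 96.5 CPM of Tnmd and the 101 CPM of Ptx3 in other NP fibroblasts.

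A further 6 genes fell and were called whichever library was left out. Pi16, the peptidase inhibitor that marks adventitial and fascia fibroblasts, gave 0, 12.8 and 59.9 CPM in the Igfbp2-high cells of NP, dpc16 and dpp42, against 756, 213 and 652 CPM in the other fibroblasts of the same libraries (log2 difference -4.09, SE 0.35, edgeR adjusted p = 3.71e-26). Fgl2, a fibrinogen-like membrane protease, gave 0, 15.3 and 83.8 CPM in Igfbp2-high cells and 579, 284 and 652 CPM in other fibroblasts (log2 difference -3.90, SE 0.33, edgeR adjusted p = 2.53e-26). Gpx3, secreted glutathione peroxidase, gave 0, 115 and 0 CPM in Igfbp2-high cells and 478, 1337 and 169 CPM in other fibroblasts (log2 difference -3.81, SE 0.31, edgeR adjusted p = 2.86e-29). For Pi16, Fgl2 and Gpx3 no Igfbp2-high value reached the lowest value of the other fibroblasts. C3, the central complement protein, gave 83.7, 23.0 and 23.9 CPM in Igfbp2-high cells and 273, 239 and 457 CPM in other fibroblasts (log2 difference -3.51, SE 0.35, edgeR adjusted p = 1.11e-19), and Icam1, the leukocyte adhesion molecule, 167, 30.7 and 47.9 CPM in Igfbp2-high cells and 587, 283 and 436 CPM in other fibroblasts (log2 difference -3.09, SE 0.31, edgeR adjusted p = 1.88e-19). Tnfaip3, the A20 brake on NF-kappaB signalling, gave 126, 33.2 and 11.97 CPM in Igfbp2-high cells and 748, 162 and 282 CPM in other fibroblasts (log2 difference -2.78, SE 0.33, edgeR adjusted p = 2.25e-14), and it too was called in each smaller fit. All 6 were lower in each library and called with the chemokine limit on both sides, which the naming rule requires. The log2 differences above, however, come from the comparison that limited Igfbp2-high cells alone. In it 58.0, 21.2 and 29.3% of other fibroblasts of NP, dpc16 and dpp42 exceeded that limit. Sizes with the limit on both sides, for C3, Icam1 and Tnfaip3 among others, are not given here.

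Ctla2a also fell, but did not pass the count filter without dpc16. Ctla2a, a cysteine protease inhibitor with a near-identical paralogue, gave 0, 102 and 11.97 CPM in the Igfbp2-high cells of NP, dpc16 and dpp42, against 40.2, 6070.4 and 56.5 CPM in the other fibroblasts of the same libraries (log2 difference -5.94, SE 0.34, edgeR adjusted p = 1.87e-53). Its level in other fibroblasts of dpc16 stands apart from the NP and dpp42 levels, and counts could be shared with that paralogue.

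**Figure D2:**
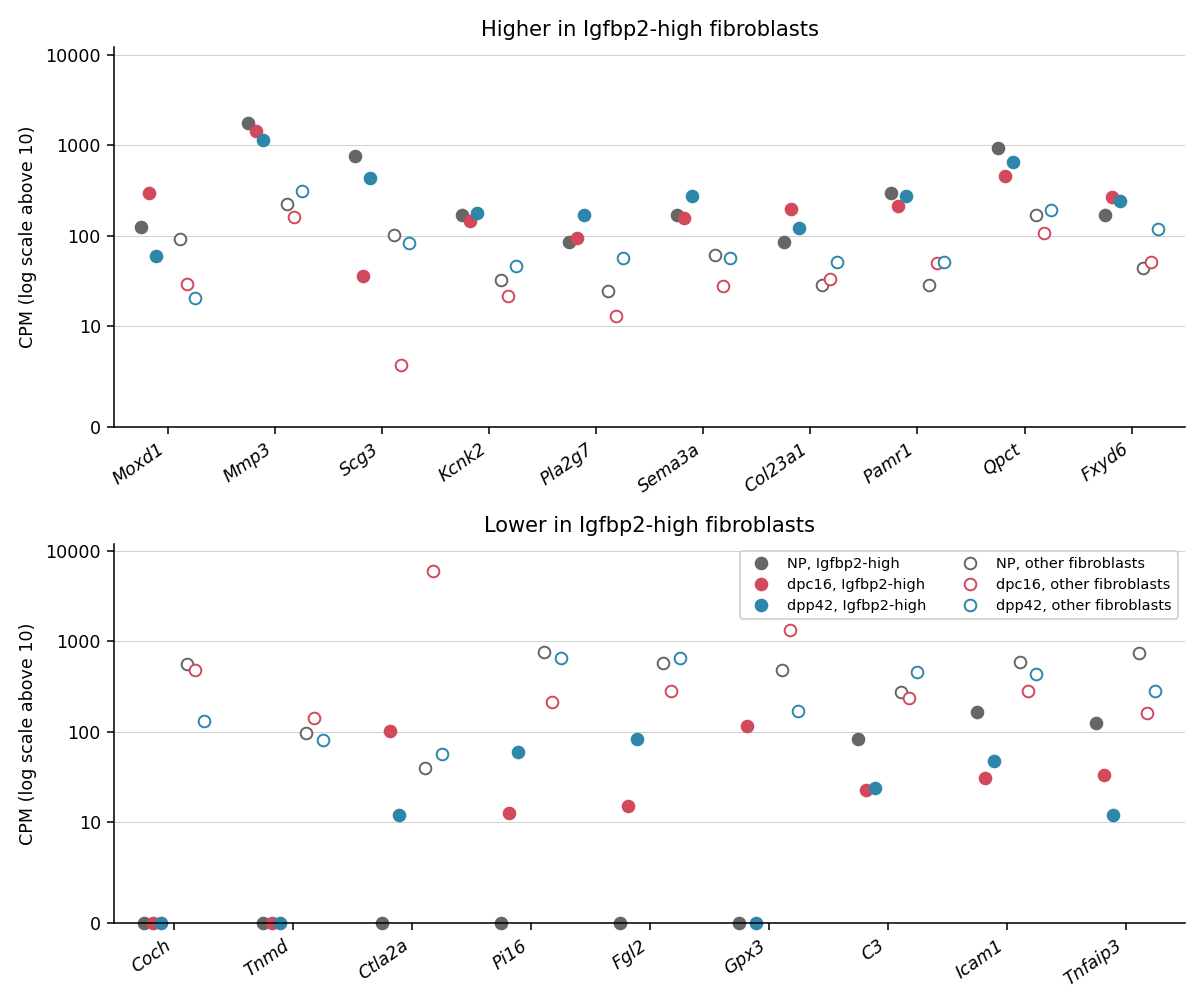
CPM of the 10 genes with the largest positive and 9 of the 10 with the largest negative log2 differences that met the naming rule, on an axis that is linear below 10 CPM and logarithmic above. Filled points are Igfbp2-high cells and open points other fibroblasts, 1 point per library; Mmp3 stands between 1137 and 1758 CPM in Igfbp2-high cells and between 160.3 and 313 CPM in other fibroblasts, and Coch and Tnmd are at 0 in every Igfbp2-high sum.

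Genes of the Wnt list that passed the count filter were higher. Of 15 Wnt ligands, R-spondins, transcription factors and targets, 5 passed the count filter and all 5 were called higher. The filter asked for 45.1 CPM in 3 of the 6 sums, so a gene can pass through the group in which it is high, and the count says nothing of the whole list. With no filter 14 were tested and 3 called higher, DESeq2 called 3 of 5, and the fit without the library block 0 of 5. Wnt5a, a ligand of the dermis, gave 335, 179 and 455 CPM in the Igfbp2-high cells of NP, dpc16 and dpp42, against 225, 37.7 and 175 CPM in the other fibroblasts of the same libraries (log2 difference 1.56, SE 0.24, edgeR adjusted p = 1.23e-08). Rspo1, an R-spondin that raises Wnt receptor levels, gave 209, 176 and 192 CPM in Igfbp2-high cells and 60.3, 60.4 and 164 CPM in other fibroblasts (log2 difference 1.11, SE 0.26, edgeR adjusted p = 5.24e-04). Every Igfbp2-high value of Wnt5a and Rspo1 was above the other fibroblasts of its own library. Axin2 (ENSMUSG00000000142, chromosome 11, 108920349 to 108950783, plus strand), the feedback inhibitor whose start region is shown above, gave 209, 51.1 and 119.7 CPM in Igfbp2-high cells and 20.1, 24.4 and 46.2 CPM in other fibroblasts (log2 difference 1.25, SE 0.37, edgeR adjusted p = 0.00855), and Nkd2, another feedback inhibitor, 126, 243 and 179.6 CPM in Igfbp2-high cells and 48.2, 51.6 and 92.4 CPM in other fibroblasts (log2 difference 1.80, SE 0.27, edgeR adjusted p = 1.85e-09). Tcf4 gave 1256, 631 and 1472 CPM in Igfbp2-high cells and 607, 319.6 and 837 CPM in other fibroblasts (log2 difference 0.81, SE 0.18, edgeR adjusted p = 2.42e-04). Despite its symbol, Tcf4 encodes a helix-loop-helix E-protein and not a TCF or LEF factor of the Wnt pathway. The list holds Tcf4, so every count for this list includes it.

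How far these calls rest on single libraries differed by gene. With 1 library left out at a time, Axin2 kept its call, with adjusted p between 0.0238 and 0.0425. However, Axin2 passed the filter through its Igfbp2-high sums, with only the dpp42 sum of other fibroblasts also over that level. Its adjusted p was 0.102 with no filter and 0.0728 without cells with markers of other types, and with the chemokine limit on both groups it was not testable. Wnt5a, Rspo1 and Nkd2 lost their calls without dpc16, where the adjusted p was 0.0680, 0.641 and 0.368. Tcf4 lost its call without dpp42 (0.0857). With the chemokine limit on both sides 4 of 4 testable members were called, and with the strictest reference cells 3 of 4, Tcf4 among them both times. Dkk2, the only one of 12 secreted Wnt inhibitors that could be tested, was also higher, at 1339, 746 and 778 CPM in Igfbp2-high cells and 374, 465 and 647 CPM in other fibroblasts (log2 difference 0.68, SE 0.19, edgeR adjusted p = 0.00548), but without NP its adjusted p was 0.187 and without dpp42 0.0525. Grem1, a secreted antagonist of bone morphogenetic proteins and the single higher gene among 12 tested of the BMP and TGF-beta list, gave 419, 146 and 527 CPM in Igfbp2-high cells and 221, 55.1 and 216 CPM in other fibroblasts (log2 difference 1.15, SE 0.24, edgeR adjusted p = 3.14e-05), and adjusted p lay between 4.18e-05 and 0.0294 with 1 library left out. In that list Id2, a BMP target, was lower, at 167, 30.7 and 59.9 CPM in Igfbp2-high cells and 189, 80.6 and 97.6 CPM in other fibroblasts (log2 difference -1.16, SE 0.35, edgeR adjusted p = 0.0107); without dpc16 or dpp42 it was not called.

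Collagens that passed the count filter leaned higher. Of 19 listed collagens, the 3 gate collagens among them, 14 were tested. Of these, 7 were called higher and none lower, with a median log2 difference of 0.50. With no filter 16 were tested and 2 called higher, with a median of 0.23, and the fit without the library block called 1 of 14. Col7a1 and Col23a1 passed the filter through Igfbp2-high sums, with only the dpp42 sum of other fibroblasts also over 45.1 CPM. The 7 were Col5a1, Col5a3, Col6a2, Col7a1, Col14a1, Col15a1 and Col23a1. Col14a1, which ties fibrils together, gave 167, 219.8 and 192 CPM in the Igfbp2-high cells of NP, dpc16 and dpp42, against 72.4, 100 and 61.6 CPM in the other fibroblasts of the same libraries (log2 difference 1.11, SE 0.26, edgeR adjusted p = 5.19e-04), without overlap between the groups. Col5a1, a nucleator of fibrils, gave 921, 785 and 539 CPM in Igfbp2-high cells and 438, 495 and 282 CPM in other fibroblasts (log2 difference 0.69, SE 0.20, edgeR adjusted p = 0.00724). Col7a1, the anchoring fibril collagen of the dermal-epidermal junction, gave 0, 219.8 and 144 CPM in Igfbp2-high cells and 40.2, 39.1 and 51.3 CPM in other fibroblasts (log2 difference 2.04, SE 0.29, edgeR adjusted p = 3.92e-10), with the rise seen in dpc16 and dpp42. None of the 7 was called in all 3 fits that left out a library: without dpc16 1 collagen was called, without dpp42 2, and DESeq2 called 0. With the strictest reference cells 1 was called, and as the gate itself asks for collagen RNA, the share of low-collagen cells in the reference moves with this list.

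Genes that process collagen and build other matrix moved in both directions. Among 14 tested collagen-processing genes 3 were higher and 1 lower. Sparc, a collagen-binding protein, gave 11218, 31494 and 7877 CPM in the Igfbp2-high cells of NP, dpc16 and dpp42, against 6775, 23107 and 5253 CPM in the other fibroblasts of the same libraries (log2 difference 0.45, SE 0.13, edgeR adjusted p = 0.00724), and Pcolce, the enhancer of procollagen cleavage, 879, 1125 and 706 CPM in Igfbp2-high cells and 349.8, 577 and 467 CPM in other fibroblasts (log2 difference 0.80, SE 0.20, edgeR adjusted p = 8.68e-04). Lox, the collagen cross-linking oxidase, was lower, at 41.9, 123 and 83.8 CPM in Igfbp2-high cells and 105, 241 and 113 CPM in other fibroblasts (log2 difference -1.02, SE 0.29, edgeR adjusted p = 0.00434). Sparc lost its call without dpp42, Pcolce without dpc16 or dpp42 and Lox without dpc16. Of 11 elastic-fibre genes, Fbln1, Fbln5 and Efemp1, all fibulins, were higher and Mfap4 lower. Fbln1 gave 1256, 345 and 802 CPM in Igfbp2-high cells and 369.9, 143 and 524 CPM in other fibroblasts (log2 difference 1.04, SE 0.20, edgeR adjusted p = 8.43e-06), and Efemp1 1381, 636 and 1089 CPM in Igfbp2-high cells and 611, 262 and 729 CPM in other fibroblasts (log2 difference 0.90, SE 0.19, edgeR adjusted p = 5.27e-05). Mfap4, a microfibril protein, gave 377, 854 and 215 CPM in Igfbp2-high cells and 454, 2079.9 and 1422 CPM in other fibroblasts (log2 difference -1.68, SE 0.21, edgeR adjusted p = 3.21e-13). Fbln1, Efemp1 and Mfap4 were called whichever library was left out, and Fbln5 was not called without dpp42.

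Among proteases, matricellular proteins and proteoglycans a few genes stood out. Adamts5, an aggrecan- and versican-cleaving protease, gave 795, 404 and 682 CPM in the Igfbp2-high cells of NP, dpc16 and dpp42, against 209, 151 and 365 CPM in the other fibroblasts of the same libraries (log2 difference 1.22, SE 0.21, edgeR adjusted p = 1.95e-07). Nov, also called Ccn3, a matricellular protein, gave 795, 276 and 1006 CPM in Igfbp2-high cells and 369.9, 66.5 and 298 CPM in other fibroblasts (log2 difference 1.62, SE 0.21, edgeR adjusted p = 1.20e-12). Thbs2, thrombospondin 2, gave 2428, 1572 and 1951 CPM in Igfbp2-high cells and 957, 1058 and 745 CPM in other fibroblasts (log2 difference 0.91, SE 0.17, edgeR adjusted p = 5.17e-06). Each of these was higher within every library. Postn, periostin, gave 0, 43.4 and 156 CPM in Igfbp2-high cells and 289, 261 and 637 CPM in other fibroblasts (log2 difference -2.56, SE 0.29, edgeR adjusted p = 7.19e-16), and Cyr61, also called Ccn1, 293, 580.1 and 275 CPM in Igfbp2-high cells and 1174, 1135 and 714 CPM in other fibroblasts (log2 difference -1.35, SE 0.20, edgeR adjusted p = 4.30e-09), both lower in every library. Cd44, the hyaluronan receptor, gave 41.9, 43.4 and 108 CPM in Igfbp2-high cells and 342, 136 and 226 CPM in other fibroblasts (log2 difference -1.71, SE 0.31, edgeR adjusted p = 2.22e-06). All were called whichever library was left out except Thbs2, which was not called without dpp42. In counts, 13 tested proteases and inhibitors had 3 higher and 2 lower, 11 matricellular genes 3 and 2, 9 proteoglycan and hyaluronan genes 1 and 4, and 9 basement membrane and integrin genes 1 and 0.

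Markers of dermal layers did not point one way. Of 8 tested papillary markers Dpp4, Col23a1 and Axin2 were higher and none lower, with a median log2 difference of 0.38. Col23a1 and Axin2 passed the count filter through their Igfbp2-high sums, with only the dpp42 sum of other fibroblasts also over 45.1 CPM. With no filter 10 papillary markers were tested and 2 called higher, and DESeq2 called 1 of 8. Of 4 tested reticular markers Ly6a was higher and Cd34, Gpx3 and Cxcl12 lower, and of 7 fascia and adventitial markers Nov was higher and Pi16, Sema3c and Anxa3 lower, with medians of -1.17 and -1.06. Dpp4, the dipeptidyl peptidase CD26, gave 126, 143 and 215 CPM in the Igfbp2-high cells of NP, dpc16 and dpp42, against 84.4, 41.5 and 66.8 CPM in the other fibroblasts of the same libraries (log2 difference 1.51, SE 0.29, edgeR adjusted p = 4.92e-06), with no call without dpc16. Cd34, a sialomucin of deeper fibroblasts, gave 419, 442 and 670.4 CPM in Igfbp2-high cells and 784, 584 and 852 CPM in other fibroblasts (log2 difference -0.58, SE 0.20, edgeR adjusted p = 0.0282), and Ly6a, the antigen Sca-1, 1507, 2561 and 2322 CPM in Igfbp2-high cells and 1279, 1494.9 and 1412 CPM in other fibroblasts (log2 difference 0.50, SE 0.17, edgeR adjusted p = 0.0217); leaving out any 1 library ended the Cd34 call, and leaving out dpc16 or dpp42 the Ly6a call. Across the 3 marker lists, Axin2, Gpx3, Nov and Pi16 were the calls present in every smaller fit, but Axin2 was not called with no filter.

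Other members of the insulin-like growth factor system were mostly not called or lower. Of 10 tested, 1 was higher and 4 lower, with a median log2 difference of -0.66. Pappa, the protease that cleaves IGF binding proteins, gave 0, 81.8 and 132 CPM in the Igfbp2-high cells of NP, dpc16 and dpp42, against 44.2, 20.2 and 56.5 CPM in the other fibroblasts of the same libraries (log2 difference 1.53, SE 0.35, edgeR adjusted p = 3.19e-04). Igf1, the growth factor itself, gave 377, 141 and 23.9 CPM in Igfbp2-high cells and 165, 321 and 97.6 CPM in other fibroblasts (log2 difference -1.03, SE 0.28, edgeR adjusted p = 0.00270): it was higher in the Igfbp2-high cells of NP and lower in those of dpc16 and dpp42. Igfbp7 gave 837, 1086 and 706 CPM in Igfbp2-high cells and 696, 2045 and 1617 CPM in other fibroblasts (log2 difference -0.92, SE 0.19, edgeR adjusted p = 2.62e-05), Igfbp4 0, 46.0 and 11.97 CPM in Igfbp2-high cells and 105, 88.0 and 71.9 CPM in other fibroblasts (log2 difference -1.35, SE 0.39, edgeR adjusted p = 0.00564) and Igfbp3 0, 53.7 and 23.9 CPM in Igfbp2-high cells and 76.4, 94.3 and 82.2 CPM in other fibroblasts (log2 difference -1.15, SE 0.37, edgeR adjusted p = 0.0157). None of these 5 calls held in all 3 fits with a library left out. For Igf1 the adjusted p was 0.981 without dpc16 and 0.209 without dpp42, for Igfbp7 0.206 without dpp42, and Pappa was not testable without dpc16. Igfbp4 and Igfbp3 were not called without dpc16 or without dpp42.

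**Figure D3:**
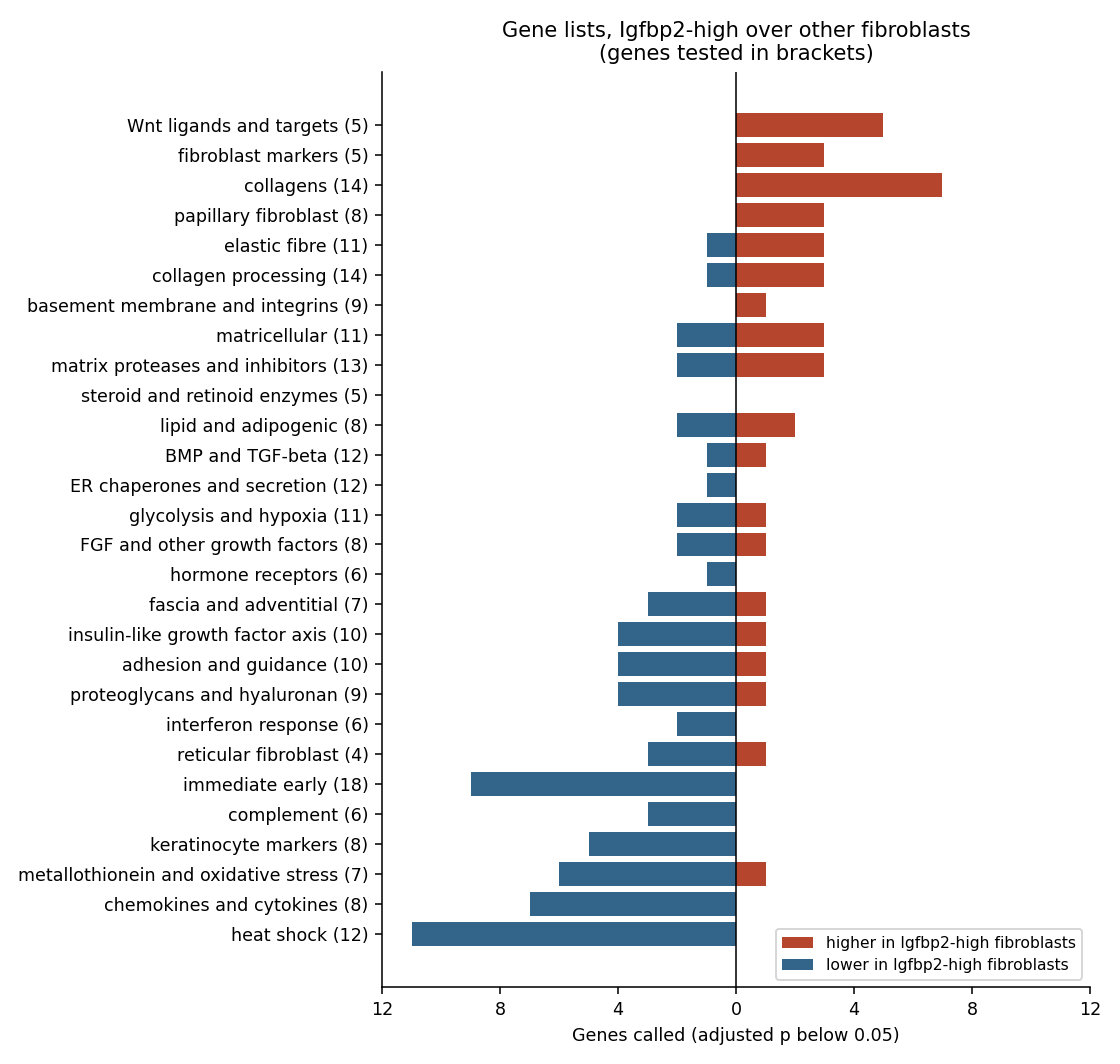
Genes called higher (right) or lower (left) in Igfbp2-high cells for lists of 4 or more tested genes, the number tested in brackets. Over all 2906 genes tested 4.89% were higher and 9.88% lower. In the Wnt list, which includes Tcf4, 5 of 5 genes were called higher, and 11 of 12 heat shock genes lower.

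Inflammatory genes were lower, in a comparison that the gate itself touches. Of 8 tested chemokines and cytokines other than Ccl2 and Ccl7, 7 were lower. Cxcl1, a neutrophil chemokine, gave 126, 204 and 0 CPM in the Igfbp2-high cells of NP, dpc16 and dpp42, against 1270.5, 639 and 252 CPM in the other fibroblasts of the same libraries (log2 difference -2.26, SE 0.26, edgeR adjusted p = 1.58e-15), and Il6, interleukin 6, 41.9, 33.2 and 23.9 CPM in Igfbp2-high cells and 852, 118 and 216 CPM in other fibroblasts (log2 difference -2.57, SE 0.34, edgeR adjusted p = 9.05e-12). Csf1, the macrophage growth factor, gave 167, 76.7 and 47.9 CPM in Igfbp2-high cells and 346, 162 and 277 CPM in other fibroblasts (log2 difference -1.47, SE 0.28, edgeR adjusted p = 8.60e-06). All 3 were lower in every library and in every smaller fit. The Igfbp2-high cells were limited in Ccl2, Ccl7 and Tnfaip6 and the other fibroblasts were not. With the limit on both sides Cxcl1 had an adjusted p of 0.117 and Il6 and Csf1 were no longer testable, while Ccl11, Cxcl12 and Cxcl14 were still called lower. Of 6 complement genes tested, C3, C1s1 and C4b were lower, and C3 and C1s1 were called with the limit on both sides and in every smaller fit. C1s1, a protease of the first complement component, gave 126, 51.1 and 83.8 CPM in Igfbp2-high cells and 161, 149 and 323 CPM in other fibroblasts (log2 difference -1.66, SE 0.31, edgeR adjusted p = 2.89e-06). C4b, which has a near-identical paralogue, was not testable without dpc16.

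Stress genes were lower too, in the same comparison with the chemokine limit on Igfbp2-high cells alone. Of 12 heat shock genes 11 were lower, with a median log2 difference of -0.81. With the limit on both sides 9 of 11 were lower. Dnajb1, a co-chaperone, gave 83.7, 174 and 23.9 CPM in the Igfbp2-high cells of NP, dpc16 and dpp42, against 229, 481 and 267 CPM in the other fibroblasts of the same libraries (log2 difference -1.81, SE 0.26, edgeR adjusted p = 9.80e-10), and Hspb1, the small heat shock protein, 83.7, 532 and 156 CPM in Igfbp2-high cells and 414, 1239 and 401 CPM in other fibroblasts (log2 difference -1.45, SE 0.23, edgeR adjusted p = 2.97e-08), and these were the heat shock genes called in all 3 smaller fits. Hspa1a, the inducible HSP70 gene that shares reads with its near-identical copy Hspa1b, gave 1339, 3340.3 and 551 CPM in Igfbp2-high cells and 1443, 4219 and 1643 CPM in other fibroblasts (log2 difference -0.77, SE 0.17, edgeR adjusted p = 2.17e-04), with an adjusted p of 0.504 without dpp42. Without dpc16 and without dpp42 5 heat shock genes were called, and 3 with the strictest reference cells. Of 18 immediate early genes 9 were lower, Atf3 and Zfp36 in every smaller fit. With the chemokine limit on both sides 5 of 17 were lower, Atf3 and Zfp36 among them, and with the strictest reference cells 3 of 16. DESeq2 called 3 of 18 lower and the fit without the library block 0. Zfp36, which destabilises inflammatory mRNA, gave 502, 475 and 431 CPM in Igfbp2-high cells and 1624, 770.0 and 1058 CPM in other fibroblasts (log2 difference -1.19, SE 0.19, edgeR adjusted p = 7.46e-08).

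Of 7 tested metallothionein and oxidative stress genes 6 were lower, and with the chemokine limit on both sides 3 of 5. Mt2, a metal-binding protein, gave 2721, 549 and 395 CPM in the Igfbp2-high cells of NP, dpc16 and dpp42, against 8419, 1386 and 5617 CPM in the other fibroblasts of the same libraries (log2 difference -2.24, SE 0.17, edgeR adjusted p = 1.32e-31), and Mt1, its neighbour, 5065, 1334 and 1808 CPM in Igfbp2-high cells and 16086, 2457 and 10182 CPM in other fibroblasts (log2 difference -1.78, SE 0.15, edgeR adjusted p = 1.81e-26). No Igfbp2-high value of Mt2 reached the other fibroblasts of its library. Both were called without each library and with the chemokine limit on both sides, where the log2 difference of Mt2 was -0.63 and that of Mt1 -0.66, smaller than without it. With the strictest reference cells the adjusted p of Mt2 was 0.0537. Sod3, extracellular superoxide dismutase, was the 1 higher gene, at 293, 503 and 323 CPM in Igfbp2-high cells and 233, 214 and 226 CPM in other fibroblasts (log2 difference 0.82, SE 0.22, edgeR adjusted p = 0.00251), not called without dpc16 or dpp42.

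Keratinocyte RNA was lower in Igfbp2-high cells as well. Of 8 tested keratinocyte markers 5 were lower and none higher. Krt10, a keratin of the suprabasal epidermis, gave 377, 143 and 263 CPM in the Igfbp2-high cells of NP, dpc16 and dpp42, against 696, 492 and 714 CPM in the other fibroblasts of the same libraries (log2 difference -1.65, SE 0.23, edgeR adjusted p = 2.58e-10), and Krt5, the basal keratin, 83.7, 133 and 204 CPM in Igfbp2-high cells and 394, 223 and 493 CPM in other fibroblasts (log2 difference -1.15, SE 0.24, edgeR adjusted p = 6.01e-05). When cells with at least 0.5% of UMIs from markers of other types were left out of both groups, 0 of 5 testable markers were called, and Krt10 had a log2 difference of 0.09. With a collagen gate of 2%, 0 of 7 were called. These values move with the calls above, and their part in those calls was not tested. In the fit without such cells, Mmp3 had a log2 difference of 2.51 (edgeR adjusted p = 1.44e-08), and 103 of the 142 higher and 207 of the 287 lower calls were made again.

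Several secreted or membrane genes outside these lists were called whichever library was left out. S100a4, a calcium-binding protein used as a fibroblast marker, gave 3642, 2341 and 4836 CPM in the Igfbp2-high cells of NP, dpc16 and dpp42, against 1508, 796 and 1874 CPM in the other fibroblasts of the same libraries (log2 difference 1.28, SE 0.16, edgeR adjusted p = 3.10e-13). F13a1, the coagulation factor XIII chain that cross-links fibrin, gave 963, 966 and 623 CPM in Igfbp2-high cells and 322, 144 and 298 CPM in other fibroblasts (log2 difference 1.90, SE 0.21, edgeR adjusted p = 7.19e-16). Mme, the peptidase neprilysin, gave 419, 105 and 802 CPM in Igfbp2-high cells and 125, 28.0 and 190.0 CPM in other fibroblasts (log2 difference 1.82, SE 0.25, edgeR adjusted p = 5.79e-11). Igfbp2-high values of all 3 were above the other fibroblasts of the same library. Cntn1, a contactin of neurons, gave 209, 63.9 and 156 CPM in Igfbp2-high cells and 44.2, 5.26 and 41.1 CPM in other fibroblasts (log2 difference 2.81, SE 0.41, edgeR adjusted p = 8.31e-10), and Apod, a lipid-binding apolipoprotein, 335, 371 and 1042 CPM in Igfbp2-high cells and 149, 153 and 411 CPM in other fibroblasts (log2 difference 1.17, SE 0.21, edgeR adjusted p = 1.15e-06). Apoe, another apolipoprotein, was lower, at 335, 1321 and 623 CPM in Igfbp2-high cells and 860.4, 4194 and 1961 CPM in other fibroblasts (log2 difference -1.75, SE 0.19, edgeR adjusted p = 5.65e-17), and Serpinf1, the anti-angiogenic factor PEDF, was lower, at 41.9, 258 and 95.8 CPM in Igfbp2-high cells and 285, 899.8 and 452 CPM in other fibroblasts (log2 difference -2.05, SE 0.25, edgeR adjusted p = 3.10e-13). S100a4, F13a1, Mme and Cntn1 are also known outside fibroblasts, in leukocytes, platelets, kidney and neurons. For Cntn1 every sum of other fibroblasts was under 45.1 CPM, so it passed the count filter through its Igfbp2-high sums alone. Of the remaining lists, glycolysis and hypoxia had 1 higher and 2 lower of 11, hormone receptors 0 and 1 of 6, adhesion and guidance 1 and 4 of 10, lipid genes 2 and 2 of 8, interferon response 0 and 2 of 6, FGF and other growth factors 1 and 2 of 8, endoplasmic reticulum chaperones 0 and 1 of 12, and steroid and retinoid enzymes 0 and 0 of 5. The higher gene of the growth factor list was Ctsl, a protease and not a growth factor, which is also among the 3 higher proteases and inhibitors.

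The genes most like Igfbp2 from cell to cell are a description only, since Igfbp2 also split the cells. Over all fibroblasts of the collagen gate, Spearman correlations with Igfbp2 were computed within each library for 4384 genes and averaged over the 3. They describe cells that share a library, depth and the gate, and carry no p. The 10 highest were S100a4 (0.50), Mmp3 (0.49), F13a1 (0.42), Col3a1 (0.41), Qpct (0.40), Pamr1 (0.38), Nov (0.37), Sema3a (0.35), Mme (0.35) and Grem1 (0.34). Col3a1 is itself a gate gene. F13a1 correlated at 0.46, 0.57 and 0.25 in NP, dpc16 and dpp42, and Mmp3 at 0.57, 0.51 and 0.40.

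Levels on both sides of the 0.2% gate are described for dpc16, which has the most cells. There, Mmp3 stood at 1666 CPM in the 51 Igfbp2-high cells with at least 0.4% Igfbp2 and 1007 CPM in the 34 with 0.2 to 0.4%, against 837 CPM in the 53 other fibroblasts with 0.1 to 0.2%, 279.8 CPM in the 143 with less and 97.7 CPM in the 859 with no Igfbp2 UMI. Its level fell stepwise with the Igfbp2 share on both sides of the gate. S100a4 in the same 5 groups stood at 2452, 2157, 2001, 1239 and 641 CPM, and Qpct at 503, 381, 230.2, 149 and 90.6 CPM. Moxd1 differed, with 311, 265, 84.1, 76.6 and 16.8 CPM, and its exact 95% Poisson interval of 189 to 363 CPM just over the gate lies above the 50.6 to 131 CPM just under it. NP and dpp42 have groups of 4 to 11 cells near the gate. In NP, Mmp3 was 1548 and 2066 CPM in Igfbp2-high cells over and under 0.4%, and 1031, 601 and 124 CPM in the other 3 groups. In dpp42 the values were 1222 and 848 CPM in Igfbp2-high cells and 619.6, 184 and 316 CPM in the others.

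**Figure D4:**
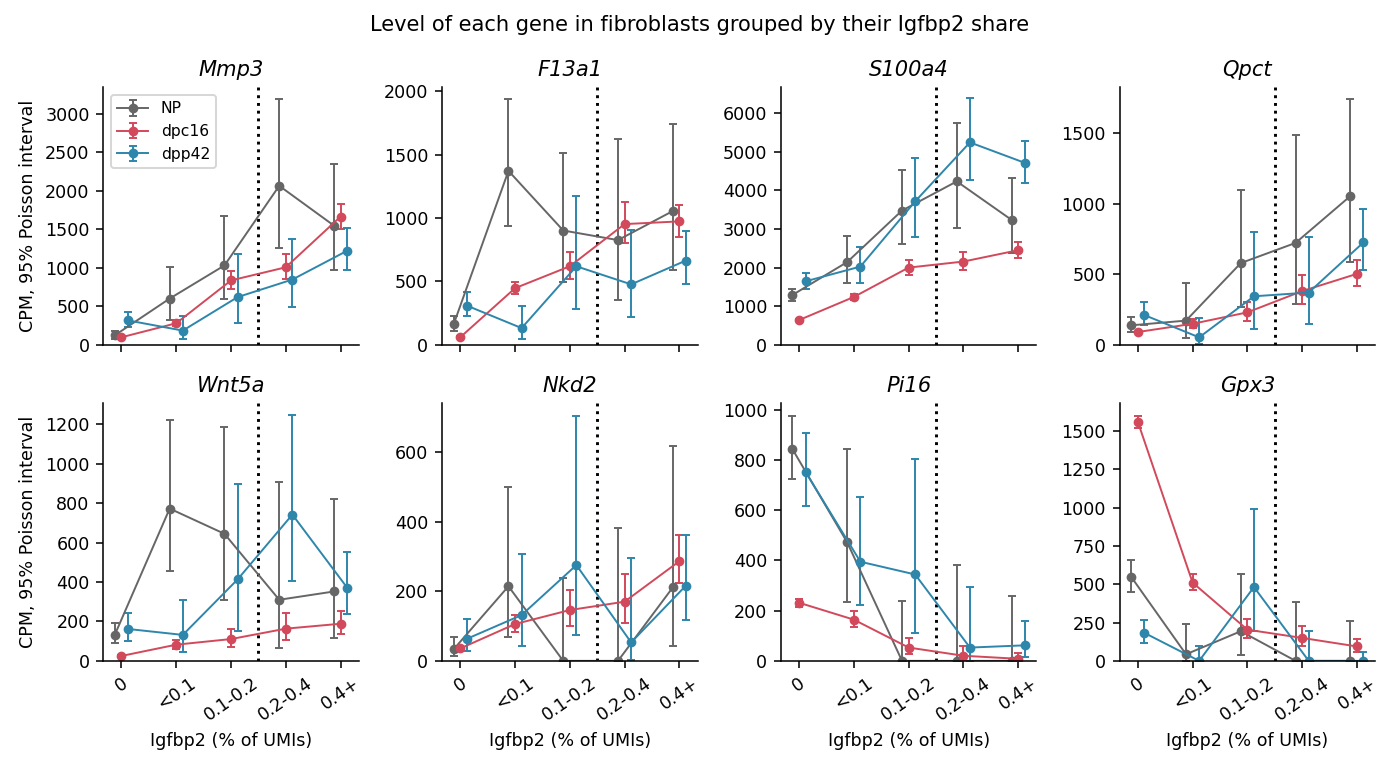
CPM of 8 genes in fibroblasts grouped by their Igfbp2 share, with exact Poisson 95% intervals, 1 line per library; the dotted line is the 0.2% gate with Igfbp2-high cells to its right. Mmp3 in dpc16 is at 1007 and 1666 CPM to the right of the gate and at 97.7, 279.8 and 837 CPM from no Igfbp2 UMI up to the gate.

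Single Igfbp2-high cells varied in how many of the 10 leading higher genes they held. With every cell thinned to 1900 UMIs, which left out no cell, at least 3 of the 10 were detected in 80.0% of Igfbp2-high cells of NP, 62.4% of dpc16 and 84.4% of dpp42. In other fibroblasts the shares were 17.0, 5.40 and 24.0%. The median number detected was 4, 3 and 4 in Igfbp2-high cells and 1, 0 and 1 in other fibroblasts. None of the 10 was detected in 0, 7 and 0 Igfbp2-high cells. These genes were chosen on the same cells, so the shares describe how the difference is spread and do not support it.

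Between stages each Igfbp2-high sum is 1 library, so differences are given with exact 95% intervals for counting error and no test. Past the fold means a ratio of at least 2 with at least 100 CPM in the higher library. The 100 CPM were asked for within each cell group, so the genes compared differ between the groups. A gene can enter through the library in which it is high. In dpc16 over NP, 1810 genes could be compared, 199 (11.0%) were past the fold higher and 537 (29.7%) lower. In other fibroblasts of the same libraries 7.14% were higher and 15.7% lower of 1541. In dpp42 over NP, 14.5% of 1982 genes were higher and 21.6% lower in Igfbp2-high cells, against 6.21 and 5.41% of 1627 in other fibroblasts. In dpp42 over dpc16, 19.8% of 1701 were higher and 8.17% lower in Igfbp2-high cells, against 15.9 and 6.61% of 1573 in other fibroblasts. The NP sum holds 10 cells and 23890 UMIs, so 100 CPM there is few counts. The split also depends on scaling. The median log2 ratio of all compared genes was -0.33, -0.08 and 0.23 in the 3 contrasts, and with TMM-scaled CPM it was -0.06, -0.11 and -0.07. With that scaling 285 genes were higher and 421 lower in dpc16 over NP, 244 and 422 in dpp42 over NP, and 195 and 209 in dpp42 over dpc16 in place of 337 and 139. The share of higher genes among those past the fold thereby moved to 40.4%, against 27.0% with plain CPM, in dpc16 over NP, and to 48.3%, against 70.8%, in dpp42 over dpc16.

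In dpc16 over NP, Sparc was higher in both groups of cells. It gave 11218, 31494 and 7877 CPM in the Igfbp2-high cells of NP, dpc16 and dpp42, against 6775, 23107 and 5253 CPM in the other fibroblasts of the same libraries, a ratio of dpc16 over NP of 2.81 (95% interval 2.49 to 3.18) in Igfbp2-high cells and 3.41 (95% interval 3.25 to 3.58) in other fibroblasts. Those intervals do not overlap, and the difference between the groups was not tested. Stc1, the secreted hormone stanniocalcin 1, gave 0, 294 and 156 CPM in Igfbp2-high cells and 4.02, 13.9 and 10.3 CPM in other fibroblasts. With 0 UMIs in Igfbp2-high cells of NP, dpc16 was at least 2.34-fold higher. Stc1 UMIs were in 0 of 10, 37 of 85 and 6 of 32 Igfbp2-high cells, 1 of 88, 34 of 1055 and 2 of 75 other fibroblasts and 0.939, 3.54 and 1.38% of cells almost free of collagen RNA. In dpc16 it was thus detected in a larger share of Igfbp2-high cells than of either comparison group. Myl12a, a myosin light chain, had a ratio of 4.81 (95% interval 2.04 to 14.9), and the autophagy gene Map1lc3b, the translation factor Eif3h and the kallikrein Klk1b24, one of a family of near-identical genes, were at least 4.11-fold, at least 2.44-fold and at least 2.79-fold higher, with 0 UMIs in NP.

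Scg3 was lower in dpc16 than in NP, at 21.1-fold lower (95% interval 9.90 to 45.7) in Igfbp2-high cells and 16.5-fold lower (95% interval 9.25 to 29.1) in other fibroblasts. The naming rule added 5 genes on few NP counts: Itpkc, Zc3h11a, Adprhl2, Zswim4 and CR974586.5, with 5, 4, 3, 3 and 3 UMIs in NP Igfbp2-high cells. Among the lists, heat shock genes had 5 of 11 past the fold higher and 0 lower in Igfbp2-high cells, and 7 of 12 higher in other fibroblasts. Endoplasmic reticulum chaperones had 5 of 12 lower in Igfbp2-high cells and 4 of 12 in other fibroblasts.

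In dpp42 over NP, glycolysis and hypoxia genes had 5 of 10 past the fold higher and 1 lower in Igfbp2-high cells, and 0 of 6 higher in other fibroblasts. Their median log2 ratio was 0.94 in Igfbp2-high cells and -0.09 in other fibroblasts, and the difference between the groups was not tested. The 10 and 6 genes are different sets, each picked by its level within that group, so these counts and medians do not set like against like. Metallothionein and oxidative stress genes had 4 of 5 lower in Igfbp2-high cells and 3 of 7 in other fibroblasts. Mt2 was 6.89-fold lower (95% interval 4.46 to 10.8) in Igfbp2-high cells and 1.499-fold lower (95% interval 1.39 to 1.61) in other fibroblasts. Cebpb, a transcription factor of inflammation and fat, was 4.32-fold lower (95% interval 2.68 to 7.0001) in Igfbp2-high cells, at 1758, 672 and 407 CPM in Igfbp2-high cells and 1508, 759 and 1047 CPM in other fibroblasts. Apod had a ratio of 3.11 (95% interval 1.51 to 7.43) in Igfbp2-high cells and 2.76 (95% interval 1.85 to 4.20) in other fibroblasts. Gadd45b, Igf1, Bmp2 and Cry2 were the other named falls. Myadm, Stmn2, Gng11, Gtf2h5 and Trim2, at 0 in NP, were at least 2.10 to 3.24-fold higher.

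In dpp42 over dpc16, which rests on more cells, Igfbp5, the IGF binding protein that sits in matrix, had a ratio of 7.09 (95% interval 5.53 to 9.12) in Igfbp2-high cells and 6.35 (95% interval 5.69 to 7.09) in other fibroblasts. Its levels were 1088, 279 and 1975 CPM in the Igfbp2-high cells of NP, dpc16 and dpp42, against 1608, 334 and 2121 CPM in the other fibroblasts of the same libraries. Mme had a ratio of 7.65 (95% interval 5.11 to 11.6) in Igfbp2-high cells and 6.79 (95% interval 4.58 to 9.84) in other fibroblasts, and Scg3 12.05 (95% interval 6.34 to 24.2) and 13.5 (95% interval 6.83 to 25.6). Sparcl1, a relative of Sparc, had 14.8 (95% interval 5.70 to 45.4) in Igfbp2-high cells, and Gpt2, a transaminase, 65.6 (95% interval 9.98 to 2773). On the lower side Sparc was 3.998-fold lower (95% interval 3.70 to 4.33) in Igfbp2-high cells and 4.40-fold lower (95% interval 4.14 to 4.68) in other fibroblasts. Hspa1a was 6.07-fold lower (95% interval 4.52 to 8.33) in Igfbp2-high cells and 2.57-fold lower (95% interval 2.30 to 2.88) in other fibroblasts. Ubb, a ubiquitin gene, was 3.27-fold lower (95% interval 2.61 to 4.15), and Ramp3, a receptor-modifying protein for adrenomedullin, 18.8-fold lower (95% interval 3.29 to 750.4), in Igfbp2-high cells. Klk1b24 and Cxcl1, at 0 in dpp42, were at least 9.75 and 5.69-fold lower.

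By list, heat shock genes had 5 of 11 past the fold lower in Igfbp2-high cells of dpp42 against dpc16, and 7 of 12 in other fibroblasts. Glycolysis and hypoxia genes had 6 of 10 higher in Igfbp2-high cells and 0 of 5 in other fibroblasts. Genes of the Wnt list, which includes Tcf4, had 3 of 5 and 3 of 3. The median log2 ratio of glycolysis and hypoxia genes was 1.21 in Igfbp2-high cells and 0.61 in other fibroblasts, against medians of 0.23 and 0.22 over all compared genes. For the Wnt list the medians were 1.22 and 1.44. Here too the genes that met the CPM minimum differ between the groups, so the counts and medians cover different genes.

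The EGFP reporter, switched on by Cre in cells with an active collagen promoter, was detected unevenly. It had a UMI in 2 of 10 Igfbp2-high cells of NP, 0 of 85 of dpc16, which allows a share of up to 3.53% by a limit of 3 counts (exact upper bound 4.25%), and 10 of 32 of dpp42 (31.3%, exact Clopper-Pearson 95% interval 16.1 to 50.01). In other fibroblasts it was in 9 of 88, 5 of 1055 and 4 of 75 cells, and in 0.512, 1.86 and 1.60% of cells almost free of collagen RNA. The dpp42 share of Igfbp2-high cells is above both. Its interval, which covers only counting error among cells of 1 library, lies above the 5.33% of other dpp42 fibroblasts. The difference was not tested. Thinned to 1900 UMIs per cell, the shares in dpp42 were 21.9% of Igfbp2-high cells and 4% of other fibroblasts. Summed, EGFP stood at 83.7, 0 and 156 CPM in Igfbp2-high cells and 40.2, 1.47 and 20.5 CPM in other fibroblasts. As tamoxifen was given at different times in the 3 stages, the stage and the labelling time cannot be told apart.

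**Figure D5:**
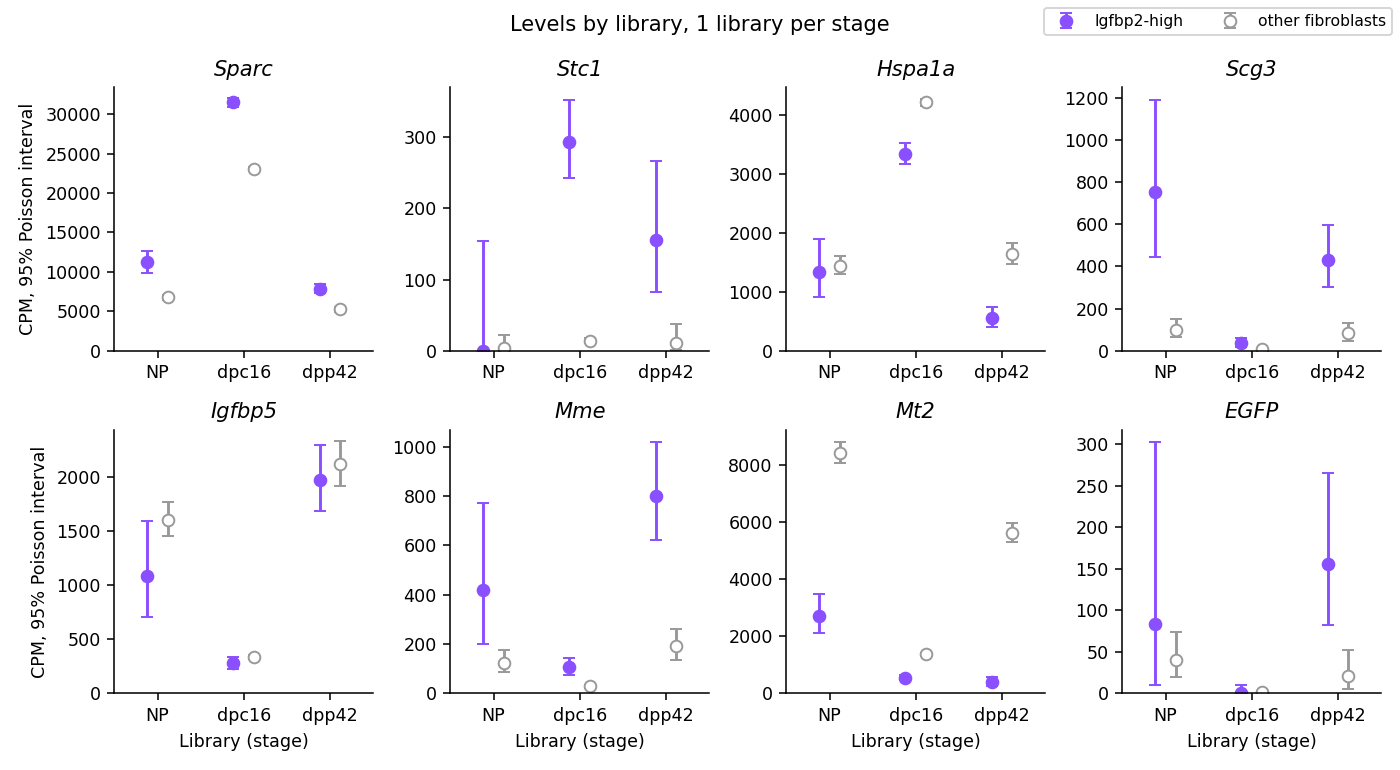
CPM of 8 genes by library in Igfbp2-high cells (filled) and other fibroblasts (open), with exact Poisson 95% intervals and 1 library per stage. Sparc is highest in dpc16 in both groups, at 31494 and 23107 CPM, and Stc1 reaches 294 CPM in dpc16 Igfbp2-high cells against 13.9 CPM in the other fibroblasts of that library.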

How the data were processed

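The authors deposited whole UMI counts per gene and barcode for 3 libraries, with no normalization. Cell Ranger 2.2.0 and the genome mm10 (GRCm38) are named in the submitters' processing notes. No annotation release is given in the sources used here. Of 28693 gene identifiers, 28416 matched GENCODE M21 and 277 did not. The members and gene lists were chosen with earlier results of these data known.

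UMI counts were summed per library over Igfbp2-high cells and over other fibroblasts. The 6 sums were tested with edgeR 4.0.16 (R 4.3.3): TMM scaling, filterByExpr with a minimum count of 10, library as block, quasi-likelihood test, Benjamini-Hochberg adjustment over all genes tested, the 9 rule genes left out. The library pairs the sums because both cell groups of a pair come from it. DESeq2 1.42.0 was an alternative. Leaving out a library left 4 sums and 1 residual degree of freedom. In simulated data with 2906 genes at the depths of these sums, 0.0370% of unchanged genes were called, 25.0% of those changed 2-fold and 81.0% of those changed 4-fold. The simulation gave every gene the same spread and the same change in every library. In the real sums differences varied between libraries, so these rates are not error rates of the real comparison.

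Named genes were, each way, the 10 with the largest log2 difference among genes called, of one sign in 3 libraries, still called with the chemokine limit on both sides and of at least 50 mean CPM. Between stages they were 6 each way, ranked by the interval bound nearest to 1. Not ranked were predicted, haemoglobin, ribosomal and mitochondrial genes and those below 0.2 times their CPM in cells under the collagen gate. List members and EGFP were added. Ptx3, Cntn1, S100a4, F13a1, Mme, Serpinf1, Dnajb1, Hspb1, Il6 and Col7a1 were chosen after their values were seen. Some genes that the rules name are not reported here. Stage contrasts had 1 library each: CPM has exact Poisson and ratios exact conditional binomial 95% intervals, a sum of 0 has a floor of 3 counts per sum, and shares have exact Clopper-Pearson intervals, all for counting error only. No doublet caller was run. Other tools were Python 3.11.15, numpy 2.4.6, scipy 1.17.1, pandas 2.3.3 and matplotlib 3.10.9.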

Additional observations from a re-analysis of the deposited data

Results flagged for a closer look

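In dpc16, 12 cells under the collagen gate held at least 0.2% Igfbp2, 0.481% of the 2496 cells there. They stand out because data outside the comparisons show a signal: their summed Acta2, smooth muscle actin, was 10259 CPM, against 76.2 CPM in the rest of those cells, with a UMI in 5 of the 12. Akr1c18 was in 10 of the 12, at 5363 CPM against 1383 CPM in the rest.

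The 16 fibroblasts of dpc16 over both the Igfbp2 gate and the chemokine limit were in neither group. Their Mmp3 was 1805 CPM, against 97.7 CPM in dpc16 fibroblasts with no Igfbp2 UMI and 164 CPM in the 199 of those over the chemokine limit. In the 3 fibroblasts of NP over both limits Mmp3 was 315 CPM, on 3 UMIs. In the 3 of dpp42 it was 1732 CPM, on 13 UMIs. No cause was tested for either set.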

How the results depend on the processing

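The main comparison rests on 10 NP cells and on dpc16 for most counts, so small differences were not detectable in NP. Genes called higher numbered 142, and genes called lower 287, with DESeq2 size factors 136 and 281. DESeq2's own test gave 47 and 89, with 1409 adjusted p not given. Without the library block, the fit that ignores the pairing of sums within a library, 6 and 18 genes were called. With no low-count filter 81 were higher, and with the strictest reference, chosen after seeing the data, 53 were higher and 49 lower. The chemokine limit on both sides gave 184 lower. Leaving out 1 library gave 56 to 172 higher and 136 to 313 lower. Among named genes called in the main fit or the alternative, the log2 difference reversed for Krt10, to 0.0857 without cells with other markers, for Anxa3, to 0.0765 without dpc16 in a leave-one-out range from -1.44, and for Gbp2, to 0.0490, and Cebpb, to 0.0610, with the chemokine limit on both sides. The cause was not tested.

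The share of fibroblasts was 21.3% in NP with the chemokine limit on both sides and 35.7% with the strictest reference. In dpc16 these gave 9.28% and 11.0%, an Igfbp2 gate of 0.1% gave 11.6% and one of 0.4% 4.41%. In dpp42 the strictest reference gave 42.0%.

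Between stages, folds of 1.5 and 3 and a minimum of 200 CPM gave 356, 80 and 108 genes higher in dpc16 over NP, 476, 107 and 115 in dpp42 over NP, and 592, 113 and 123 in dpp42 over dpc16. Lower genes numbered 281 at 3-fold and 209 at 200 CPM in dpc16 over NP, 203 and 144 in dpp42 over NP, and 303 at 1.5-fold, 52 at 3-fold and 74 at 200 CPM in dpp42 over dpc16. TMM scaling gave 195 higher and 209 lower in dpp42 over dpc16, an Igfbp2 gate of 0.4% 190 higher in dpp42 over NP, and a mitochondrial limit of 5% 512 higher in dpp42 over dpc16. For single named genes, 2534 of the recomputed values stayed on the same side of the threshold, 504 lost it, 16 gained it and the 4 above reversed. Between cell groups a reversal was counted only for a gene called in the main fit or the alternative. Any sign change of a gene called in neither is counted among the 2534.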

Other observations

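Genes of dividing cells had UMIs in a few Igfbp2-high cells of dpc16. Top2a, the topoisomerase of dividing cells, was in 5 of 85 Igfbp2-high cells (5.88%, exact 95% interval 1.94 to 13.2) and in 15 of 1055 other fibroblasts (1.42%). Birc5, survivin, was in 5 of 85 Igfbp2-high cells and 8 of 1055 other fibroblasts. The shares in dpc16 cells almost free of collagen RNA were 10.03% for Top2a, above that of Igfbp2-high cells, and 5.52% for Birc5, within the Igfbp2-high interval. Those cells can include dividing cells of their own, so their shares do not measure free RNA. Whether the UMIs in Igfbp2-high cells come from dividing cells or from free RNA was not tested. Stmn1, a tubulin regulator of growing cells, was called higher, at 41.9, 158 and 11.97 CPM in the Igfbp2-high cells of NP, dpc16 and dpp42, against 16.1, 54.3 and 51.3 CPM in the other fibroblasts of the same libraries (log2 difference 1.11, SE 0.34, edgeR adjusted p = 0.0100), and was not testable without dpc16. In dpp42 it was lower in Igfbp2-high cells.

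Progesterone receptor RNA, Pgr, was lower, at 126, 20.4 and 0 CPM in Igfbp2-high cells and 52.3, 61.7 and 10.3 CPM in other fibroblasts (log2 difference -1.31, SE 0.48, edgeR adjusted p = 0.0488), on few counts and without a call when dpp42 was left out, and was not testable without NP or dpc16. In NP it was higher in Igfbp2-high cells. Adm, the vasodilator peptide adrenomedullin, was higher, at 126, 112 and 275 CPM in Igfbp2-high cells and 76.4, 41.9 and 46.2 CPM in other fibroblasts (log2 difference 1.48, SE 0.30, edgeR adjusted p = 2.90e-05), and without dpp42 its adjusted p was 0.0623.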
